A study of Homo sapiens with 6 samples.

Results

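Most DDX and DHX genes encode DEAD-box or DEAH-box RNA helicases, proteins that use ATP to unwind RNA or to strip proteins from it. Membership here follows the gene symbol and not the protein sequence. Members were all protein-coding genes whose symbol is DDX or DHX followed by a number, leaving out DDX3Y. They came to 53 genes, 37 DDX and 16 DHX, of 60719 genes in the tables and 19920 that are protein-coding. RIGI, formerly DDX58, is outside the rule because the annotation used here carries the newer symbol.

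RNA was sequenced from H1 and H9, 2 established lines of human embryonic stem cells, after 96 h in simulated microgravity (sµg, 3 libraries) or in normal gravity (1g, 3 libraries), to ask what a changed gravity vector does to human pluripotent stem cells (hPSCs). All cells grew on Matrigel in StemFlex medium inside chamber slides, with a ROCK inhibitor at seeding. The sµg slides were turned on a 2-D clinostat, a device whose rotation averages out the direction of gravity without removing it, and the 1g slides were kept static. No source used here says which of the lines each library holds, or that replicate libraries were grown as separate cultures. The p-values therefore rest on a spread between libraries that could be technical alone, and any difference in the mix of lines cannot be told apart from the condition.

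The DEAD-box proteins work locally, prying open short duplexes, while the DEAH-box proteins tend to pull along a strand from one end. Nearly every step in the life of an RNA uses at least one of them: the nucleolar members free pre-ribosomal RNA from small nucleolar RNAs, the spliceosomal members drive each remodelling step of splicing, and others act in export, translation, decay and the sensing of viral RNA. In stem cells, which grow and divide fast, the nucleolar and spliceosomal members are known as abundant housekeeping genes, whereas a few others, such as DDX4, are markers of germ cells.

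A gene is said to pass where edgeR's quasi-likelihood test gave it a p, adjusted over all genes tested, of less than 0.05. Counts are given as CPM, a gene's expected counts relative to the TMM-scaled total of the library, and comparisons between genes as TPM, which also corrects for length. Values of 3 libraries are always in the order of replicates 1, 2 and 3. The libraries held 19971097 to 20588215 expected counts in sµg and 20876937 to 28506848 in 1g, so every sµg library was shallower than every 1g library. Pluripotency genes were well expressed in both conditions, with 1971 CPM of POU5F1 in sµg and 1945 CPM in 1g. Of 10 such markers 4 passed as lower in sµg (PODXL, DNMT3B, LIN28A and SALL4) and 0 as higher. Over all genes tested 18.2% passed as lower and 15.5% as higher. The summed level of the 10 was also lower, at 10131 to 10277 CPM in sµg and 12768 to 13045 CPM in 1g. Of 27 markers of differentiated and feeder cells 15 could be tested, with 3 higher and 8 lower in sµg, and the summed level of the 27 was 259 to 272 CPM in sµg and 492 to 512 CPM in 1g. COL1A1 alone made up 86.9 CPM of that sum in sµg and 327 CPM in 1g. The log2 fold changes of the 15 tested markers ran from −5.26 to 1.16, with a median of −0.62. GATA4, SOX17 and TBXT, defining genes of endoderm and early mesoderm, were each below 1 CPM in both conditions. The part of these markers in the differences below was not tested.

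Promoter sequence is one property the symbol rule did not use. Of the 53 members, 48 had a promoter in the RefSeq table (GRCh38.p14), here the 250 bases before and 50 after the start. The letters CCGGAAGT, a core that ETS factors such as GABPA bind, were present on either strand in 11 of these 48, or 22.9%, against 4.14% of all 35116 promoters and 6.19% of the 15842 protein-coding ones. Among the nucleolar members 6 of the 12 with a promoter held it. The promoters of DDX21, DDX39B and DDX47 are shown, a choice made after the values were seen. They are the 3 of these 11 genes that were higher in sµg, beside 17 of the 50 tested members (34.0%). The match stands in capitals. In DDX47 it is on the opposite strand, and a second run of capitals marks AAGATGGC, a YY1 core.

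DDX21: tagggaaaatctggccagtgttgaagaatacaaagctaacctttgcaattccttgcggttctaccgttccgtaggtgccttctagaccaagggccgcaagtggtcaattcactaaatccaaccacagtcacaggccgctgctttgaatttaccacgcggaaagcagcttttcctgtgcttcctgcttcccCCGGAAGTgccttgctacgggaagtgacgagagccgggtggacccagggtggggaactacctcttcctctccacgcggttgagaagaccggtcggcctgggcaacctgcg
DDX39B: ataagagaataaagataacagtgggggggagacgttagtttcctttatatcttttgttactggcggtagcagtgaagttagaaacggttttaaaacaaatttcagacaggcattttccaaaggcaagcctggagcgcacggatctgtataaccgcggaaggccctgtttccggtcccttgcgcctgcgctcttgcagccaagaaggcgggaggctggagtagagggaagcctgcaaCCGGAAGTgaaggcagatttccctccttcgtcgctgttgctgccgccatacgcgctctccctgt
DDX47: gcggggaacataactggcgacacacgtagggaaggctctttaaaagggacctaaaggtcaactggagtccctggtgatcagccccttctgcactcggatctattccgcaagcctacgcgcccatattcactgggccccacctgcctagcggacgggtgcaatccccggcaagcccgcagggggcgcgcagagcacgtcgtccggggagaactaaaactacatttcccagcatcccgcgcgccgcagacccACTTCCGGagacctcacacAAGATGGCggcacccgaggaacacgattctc

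These are chr10:68955920-68956219 on the plus strand, chr6:31541954-31542253 on the minus strand and chr12:12813096-12813395 on the plus strand. The ETS letters start 60 bases before the DDX21 start, 14 before the DDX39B start and at the first base of DDX47. Other ETS matches lay in DDX5, DDX27, DDX50, DDX56, DHX8, DHX30, DHX34 and DHX37, none of which passed the test between sµg and 1g. The E-box CACGTG, read alike on both strands, was in 8 member promoters (16.7%, against 7.26% of all and 8.88% of the protein-coding ones). The CRE letters TGACGTCA, also read alike on both strands, were in 5 (10.4%, against 1.85% and 2.59%). The core of NRF1 sites, also a palindrome, was in 2 (4.17%, against 1.24% and 1.75%) and AAGATGGC, on either strand, in 3 (6.25%, against 2.89% and 3.91%). A match is a description of letters and not evidence of binding.

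The helicases as a group took a slightly larger share of the RNA in sµg. Their CPM summed to 7647, 7708 and 7797 in the sµg libraries, against 7251, 7381 and 7367 in the 1g libraries. The 3 sµg sums all lay above the 1g sums, with means of 7717 ± 75.4 CPM in sµg and 7333 ± 71.8 CPM in 1g (SD, n = 3 each) and a difference of 384 CPM. In bulk RNA, fewer cells of a kind and less RNA per cell cannot be told apart. As a share of all expected counts they held 0.773% to 0.788% in sµg and 0.717% to 0.729% in 1g. DDX39B, DDX5, DDX21, DDX46 and DDX1 made up 189 CPM of that difference.

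Of the 53 members 50 passed the filter on low counts and were tested, and 17 of them (34.0%) were higher while 2 (4.0%) were lower in sµg, 38.0% in all. Over all 16763 genes tested 33.7% passed, 15.5% as higher and 18.2% as lower, and over the protein-coding ones 37.1%, 17.0% as higher and 20.0% as lower. Among protein-coding genes with a mean of at least 10 CPM, the range in which 47 of the members lie, 22.0% were higher and 19.5% lower, beside 36.2% of these members higher and 2 lower. The changes were small: the median log2 fold change of the 50 was 0.08. It was 0.01 over all genes and 0.02 over protein-coding genes at 10 CPM or more. Of the 50 members 35 were above 0 and 15 below, and only DHX32 moved by 0.5 or more. In 25 members every sµg library lay above every 1g library (21.8% of all genes and 23.1% of protein-coding ones) and in 4 every one lay below (23.7% and 25.5%), including all 19 that passed the test. With each library's effective gene length taken into account 8 were higher and 3 lower, DDX11, DDX21, DDX23, DDX47, DDX52, DDX59, DHX33, DHX40 and DHX57 no longer passing and DDX6 passing as lower at −0.19. Limma on TPM gave 11 higher and 2 lower. There DDX11, DDX21, DDX23, DDX52, DHX33, DHX40 and DHX57 no longer passed, and DDX49 passed as higher. Without 1g replicate 1 edgeR gave 11 and 3. Without sµg replicate 3 it gave 23 and 4, with DDX20, DDX27, DDX3X, DHX8, DHX9 and DHX38 (0.08 to 0.12) passing as higher and DDX17 and DDX19A as lower.

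**Figure D1:**
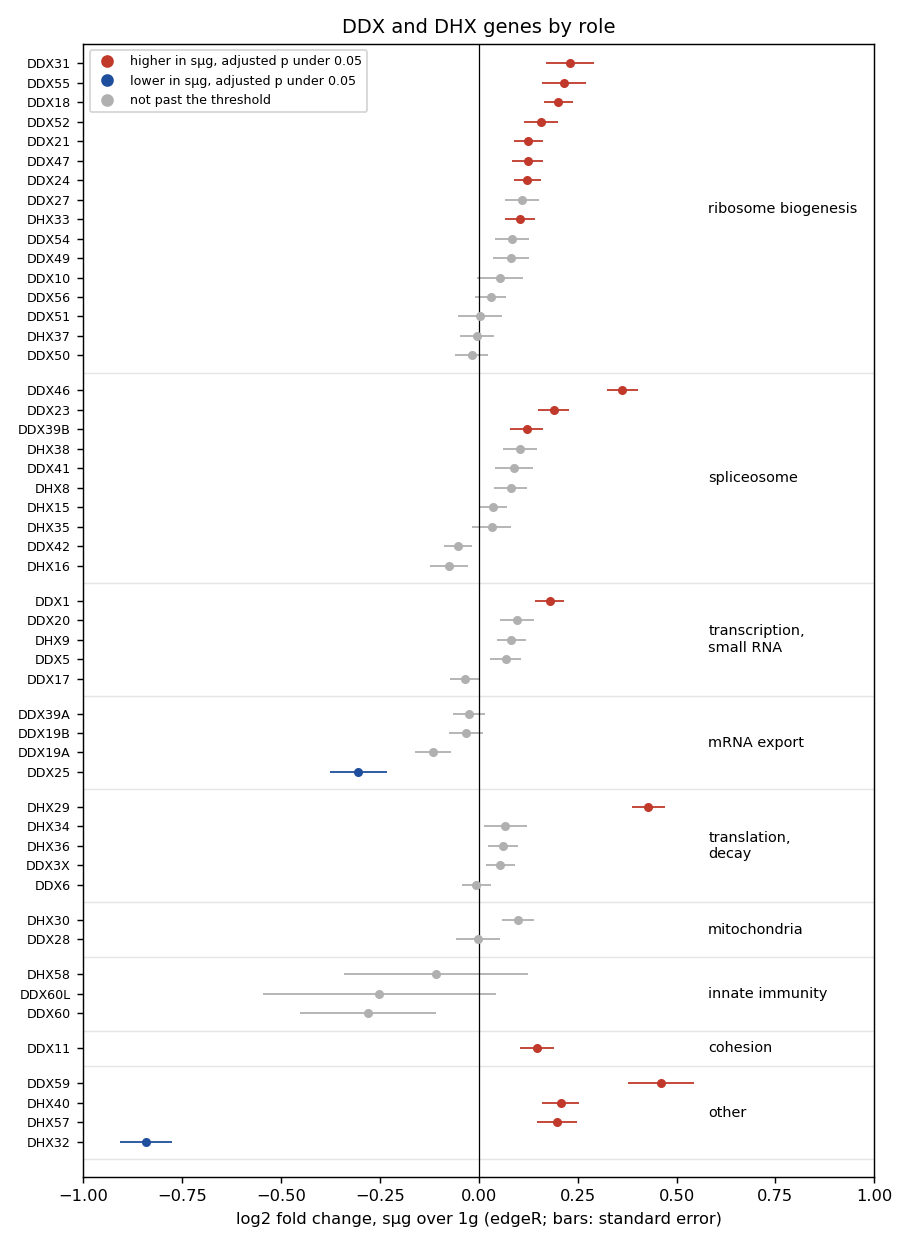
Log2 fold change, sµg over 1g, of the 50 tested DDX and DHX genes (horizontal axis; points with bars for the standard error), grouped by role down the page. Red points (17) passed as higher and blue points (2) as lower in sµg, grey points did not pass, and the nucleolar group lies mostly right of 0 and DHX32 far to the left.

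The nucleolar helicases, which act in making ribosomes, held the largest number of changes. Of 16 members 8 were higher in sµg and 0 lower, beside 15.5% of all genes higher (22.0% of protein-coding genes at 10 CPM or more). The count was 4 without 1g replicate 1 or with the effective length offset, and 5 without sµg replicate 2 or 1g replicate 3. The median log2 fold change was 0.11, with summed levels of 1713 to 1735 CPM in sµg and 1579 to 1613 CPM in 1g. DDX18, a nucleolar helicase of the large subunit pathway, had 216, 222 and 222 CPM in the sµg libraries, against 189.5, 187 and 198 CPM in the 1g libraries. The conditions did not overlap, with a log2 fold change, sµg over 1g, of 0.20 ± 0.036 (SE; edgeR adjusted p = 3.04e-04). DDX31, a nucleolar protein needed for ribosome production, had 29.6, 31.2 and 32.2 CPM in the sµg libraries, against 24.7, 27.9 and 26.8 CPM in the 1g libraries. Every sµg library was above every 1g library here as well, with a log2 fold change, sµg over 1g, of 0.23 ± 0.061 (SE; edgeR adjusted p = 0.00656), and without 1g replicate 1 its difference of 0.18 no longer passed. DDX55, whose yeast counterpart Spb4 matures the large subunit, had 31.9, 32.7 and 32.9 CPM in the sµg libraries, against 27.9, 26.6 and 29.4 CPM in the 1g libraries, again without overlap, and a log2 fold change, sµg over 1g, of 0.21 ± 0.056 (SE; edgeR adjusted p = 0.00587).

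DDX21 and DDX50 are close relatives that sit next to each other on chromosome 10. DDX21, which couples RNA polymerase I transcription to rRNA processing, had 446, 445 and 423 CPM in the sµg libraries, against 393, 403 and 409 CPM in the 1g libraries. DDX50 had 60.0, 59.2 and 59.3 CPM in the sµg libraries, against 59.1, 60.4 and 61.4 CPM in the 1g libraries. DDX21 was higher in sµg in all 3 libraries with a log2 fold change, sµg over 1g, of 0.12 ± 0.036 (SE; edgeR adjusted p = 0.0127), whereas the DDX50 values overlapped and its log2 fold change was −0.02 (standard error 0.043). The DDX21 difference did not pass without sµg replicate 1 (0.11), sµg replicate 2 (0.12) or 1g replicate 1 (0.11). The difference between the 2 genes' changes was not tested.

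The other nucleolar members that were higher were DDX52, whose yeast counterpart Rok1 acts on the small subunit precursor (0.16), DDX47, an rRNA processing factor (0.12), DDX24 of the large subunit pathway (0.12) and DHX33, which supports RNA polymerase I transcription (0.11). None of them overlapped between conditions, and their adjusted p from edgeR lay between 0.00855 for DDX52 and 0.0403 for DHX33. DHX33 had 112, 116 and 112 CPM in the sµg libraries, against 105, 104 and 107 CPM in the 1g libraries, and it no longer passed when any library other than sµg replicate 3 was left out (0.09 to 0.12). DDX47 did not pass without sµg replicate 2 (0.12) or without 1g replicate 2 (0.13) or 3 (0.11), DDX24 without 1g replicate 3 (0.12) and DDX52 without 1g replicate 1 (0.13). DDX27, which trims the end of the large rRNA precursor, was just outside the threshold at 0.11 (adjusted p = 0.0537 from edgeR). DDX10, DDX49, DDX51, DDX54, DDX56 and DHX37 had log2 fold changes between −0.0049 and 0.08 and did not pass. Of 44 ribosome biogenesis factors that are not helicases, 16 were higher and 0 lower, with a median of 0.07. Over all genes 15.5% were higher, and 22.0% of protein-coding genes at 10 CPM or more. The smallest adjusted p values of these factors belonged to TSR1 (0.36), UTP20 (0.30), EMG1 (0.26) and UTP4 (0.25).

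In the spliceosome 3 of 10 helicases were higher in sµg and 0 lower, with a median of 0.08. Over all genes 15.5% were higher, and 22.0% of protein-coding genes at 10 CPM or more. The count was 2 with the effective length offset, by limma on TPM and without 1g replicate 1, 2 or 3. It was 4 without sµg replicate 1 and 5 without sµg replicate 3. DDX46, the human Prp5, which opens the U2 snRNP for the branch site, lies on GRCh38 chromosome 5, 134758771 to 134855133, plus strand (ENSG00000145833.16). It had 147, 148 and 144 CPM in the sµg libraries, against 110.3, 118 and 113 CPM in the 1g libraries. Every sµg library was far above every 1g library, with a log2 fold change, sµg over 1g, of 0.36 ± 0.039 (SE; edgeR adjusted p = 8.33e-07). C5orf24, which shares 2.56% of the exon bases of DDX46 on the same strand, was also higher at 0.32. DDX23, the human Prp28, which hands the start of the intron from U1 to U6, had 135, 132 and 128 CPM in the sµg libraries, against 113, 118 and 117 CPM in the 1g libraries, without overlap, and a log2 fold change, sµg over 1g, of 0.19 ± 0.039 (SE; edgeR adjusted p = 9.22e-04).

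DDX39B, also called UAP56, loads U2 and then couples splicing to export, and DDX39A is its near twin. DDX39B had 557, 563 and 617 CPM in the sµg libraries, against 541, 521 and 536 CPM in the 1g libraries. DDX39A, an export factor, had 122, 126 and 132 CPM in the sµg libraries, against 129.9, 125 and 132 CPM in the 1g libraries. DDX39B was higher in all 3 sµg libraries, most in replicate 3, with a log2 fold change, sµg over 1g, of 0.12 ± 0.041 (SE; edgeR adjusted p = 0.0293), while DDX39A overlapped and stood at −0.03 (standard error 0.040). Without 1g replicate 1, 2 or 3 the DDX39B difference was 0.13, 0.11 or 0.13 and no longer passed, and without sµg replicate 3 it was 0.08 and still passed. The read-through gene ATP6V1G2-DDX39B covers 29.7% of DDX39B exon bases, so its reads are shared by estimate.

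The remaining spliceosomal members did not pass. DHX38 (Prp16, 0.10) and DHX15 (Prp43, 0.04), which remodels and takes apart spliceosomes, had every sµg library above every 1g library. DDX41 of the catalytic spliceosome stood at 0.09, DHX8 (Prp22), which releases the mRNA, at 0.08, DHX35 at 0.03, DDX42 of the U2 snRNP at −0.05 and DHX16 (Prp2) at −0.08 (0.02 with the effective length offset). Of 37 spliceosome core proteins that are not helicases 10 were higher and 1 lower, with a median of 0.05. Among protein-coding genes at 10 CPM or more 22.0% were higher and 19.5% lower. U2AF2 (0.26), SF3A3 (0.23) and PRPF19 (0.21) were higher and SNRPA, a U1 protein, was lower at −0.22.

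Among the 5 helicases of transcription and small RNA pathways only DDX1 passed. DDX1, a subunit of the tRNA ligase complex, had 253, 259.8 and 254 CPM in the sµg libraries, against 217, 233 and 228 CPM in the 1g libraries. The conditions did not overlap, with a log2 fold change, sµg over 1g, of 0.18 ± 0.037 (SE; edgeR adjusted p = 9.91e-04). Of the other subunits, FAM98A was higher at 0.26 (adjusted p = 6.10e-05 from edgeR), while RTCB, the ligase itself (0.04), FAM98B (−0.03) and RTRAF (0.06) did not pass. DDX20, also known as gemin3, assembles snRNPs with SMN and stood at 0.10 without passing, beside its partners GEMIN5 (0.24), GEMIN2 (0.27) and GEMIN4 (0.14), which did. SMN1 did not pass, at 57.6 CPM in sµg and 57.5 CPM in 1g. DHX9, RNA helicase A, stood at 0.08, with all sµg libraries above the 1g libraries and an adjusted p of 0.0964 from edgeR, and it passed without sµg replicate 3 (0.12).

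DDX5 and DDX17 are paired coactivators that also serve the microRNA processing enzyme Drosha. DDX5 had 938, 926 and 1013 CPM in the sµg libraries, against 908, 916 and 920.1 CPM in the 1g libraries. DDX17 had 699, 712 and 751 CPM in the sµg libraries, against 721, 749.9 and 746 CPM in the 1g libraries. All 3 DDX5 values in sµg were above those in 1g but close to them, and the log2 fold change of 0.07 ± 0.039 (SE; edgeR adjusted p = 0.197) did not pass. DDX17 overlapped at −0.04, and without sµg replicate 3 it passed as lower at −0.06.

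Of the 4 helicases grouped under export 0 were higher in sµg and 1 was lower, with a median of −0.07. Over all genes 15.5% were higher and 18.2% lower. DDX39B, which also serves export and was higher, is counted with the spliceosome. DDX19A and DDX19B, near-identical neighbours that remodel mRNPs at the nuclear pore, share exon bases with a further protein-coding gene, so the division of reads among the 3 is uncertain. DDX19A had 71.3, 75.5 and 75.3 CPM in the sµg libraries, against 76.4, 84.2 and 80.2 CPM in the 1g libraries. DDX19B had 56.3, 56.7 and 57.7 CPM in the sµg libraries, against 58.4, 59.4 and 56.8 CPM in the 1g libraries. DDX19A lay below 1g in every library but did not pass at −0.11 (adjusted p = 0.0604 from edgeR), although it did pass without sµg replicate 3 (−0.12) and without 1g replicate 1 (−0.15). DDX19B overlapped at −0.03, and its direction turned with effective length taken into account, to 0.13 in edgeR and 0.16 by limma on TPM, neither passing. In TPM DDX19B had 55.8, 51.6 and 55.8 TPM in the sµg libraries, against 51.0, 48.2 and 46.5 TPM in the 1g libraries, every sµg library above every 1g library. Of the nuclear pore proteins that work with them, NUP214 was higher at 0.23, while GLE1 (0.04) and NUP42 (0.10) did not pass.

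DDX25, best known as a gonadotropin-regulated helicase of testis, is on GRCh38 chromosome 11, 125903348 to 125943702, plus strand (ENSG00000109832.14). It had 18.8, 16.6 and 20.4 CPM in the sµg libraries, against 22.8, 23.2 and 23.0 CPM in the 1g libraries. Every sµg library was below every 1g library, with a log2 fold change, sµg over 1g, of −0.30 ± 0.072 (SE; edgeR adjusted p = 0.00288). Its start lies 127 bases from that of PUS3, a pseudouridine synthase of tRNA that is read in the opposite direction. PUS3 had 22.4, 22.0 and 23.8 CPM in the sµg libraries, against 17.3, 16.3 and 18.6 CPM in the 1g libraries. The 2 neighbours thus moved in opposite directions, PUS3 by 0.38 ± 0.069 (SE; edgeR adjusted p = 2.77e-04). The shared start region is printed because of this divergence, as chr11:125903078-125903377 of GRCh38.p14 on the plus strand from RefSeq, with the stretch between both GENCODE 44 starts in capitals.

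DDX25: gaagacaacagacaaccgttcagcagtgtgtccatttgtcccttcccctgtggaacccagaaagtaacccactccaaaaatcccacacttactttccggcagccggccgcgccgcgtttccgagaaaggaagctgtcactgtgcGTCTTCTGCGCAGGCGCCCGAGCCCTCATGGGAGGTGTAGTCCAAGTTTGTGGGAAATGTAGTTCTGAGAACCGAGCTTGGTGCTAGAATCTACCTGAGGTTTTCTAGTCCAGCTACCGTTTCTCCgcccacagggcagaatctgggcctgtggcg

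Of 11 members that start within 1000 bases of an oppositely read gene, DHX29, DHX38 and DDX19B also had a partner that passed in the direction of their own count-based value: MTREX, the nuclear exosome helicase, next to DHX29 (0.12), TXNL4B next to DHX38 (0.29) and AARS1 next to DDX19B (−0.16). Of these 3 members only DHX29 itself passed. PUS3 and these 3 were the only partners that passed among the 11, beside 33.7% of all genes tested and 37.1% of protein-coding ones. A link between neighbours was not tested.

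DHX29, which helps the small ribosomal subunit through structured leaders of mRNAs, had the smallest adjusted p among the members that were higher. It lies on GRCh38 chromosome 5, 55256055 to 55307694, minus strand (ENSG00000067248.10) and had 80.9, 83.2 and 79.2 CPM in the sµg libraries, against 60.3, 60.7 and 59.7 CPM in the 1g libraries. The conditions were far apart beside a spread of a few CPM, with a log2 fold change, sµg over 1g, of 0.43 ± 0.041 (SE; edgeR adjusted p = 2.36e-07). The 4 other members of translation and decay did not pass: DDX3X, a translation helicase (0.05), DHX36, which opens G-quadruplexes (0.06), DHX34 of nonsense-mediated decay (0.07) and DDX6, which holds mRNAs in P-bodies (−0.01, but −0.19 and passing as lower with the effective length offset). The mitochondrial DHX30 and DDX28, both needed for mitochondrial ribosomes, stood at 0.10 and −0.0013. DHX30 had an adjusted p of 0.0644 from edgeR.

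The largest change of the family was a fall. DHX32, a member of less defined function, lies on GRCh38 chromosome 10, 125836337 to 125896436, minus strand (ENSG00000089876.12). It had 16.2, 18.8 and 17.2 CPM in the sµg libraries, against 31.9, 29.9 and 31.6 CPM in the 1g libraries. Its level in sµg was thus far below that in 1g in every library, a ratio of 0.558 to 1g and a log2 fold change, sµg over 1g, of −0.84 ± 0.066 (SE; edgeR adjusted p = 1.39e-08). BCCIP, read on the opposite strand, covers 10.4% of the exon bases of DHX32 and was higher in sµg at 0.19 (149.9 CPM in sµg and 131 CPM in 1g), and RSEM's default counting does not use strand. Such sharing of exon bases with a gene of at least 1 CPM held for 17 members, among them DDX55 with EIF2B1 (9.41%), DDX24 with OTUB2 (7.49%) and DDX31 with GTF3C4 (6.62%), and none of these 3 partners passed.

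DDX59, which is linked to ciliary signaling and orofacial development, had the largest rise. It is on GRCh38 chromosome 1, 200623896 to 200669907, minus strand (ENSG00000118197.14) and had 12.0, 12.1 and 12.7 CPM in the sµg libraries, against 8.97, 9.02 and 8.72 CPM in the 1g libraries. The 2 conditions were apart, with a log2 fold change, sµg over 1g, of 0.46 ± 0.084 (SE; edgeR adjusted p = 3.31e-04), but at an adjusted p of 0.0513 it did not pass with the effective length taken into account, where its value was 0.40 (over all the alternatives the adjusted p lay between 3.60e-05 and 0.0513). DHX40 and DHX57, both poorly studied, were higher as well. DHX40 had 58.6, 62.6 and 60.1 CPM in the sµg libraries, against 50.2, 54.3 and 52.8 CPM in the 1g libraries. DHX57 had 53.8, 51.5 and 48.5 CPM in the sµg libraries, against 44.4, 46.2 and 43.6 CPM in the 1g libraries. Neither overlapped between conditions, with a log2 fold change, sµg over 1g, of 0.21 ± 0.047 (SE; edgeR adjusted p = 0.00231) for DHX40 and 0.20 ± 0.050 for DHX57 (edgeR adjusted p = 0.0054). With the effective length offset neither passed, at 0.14 for DHX40 and 0.19 for DHX57. By limma on log2(TPM + 1) they did not pass either, at 0.17 and 0.21.

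**Figure D2:**
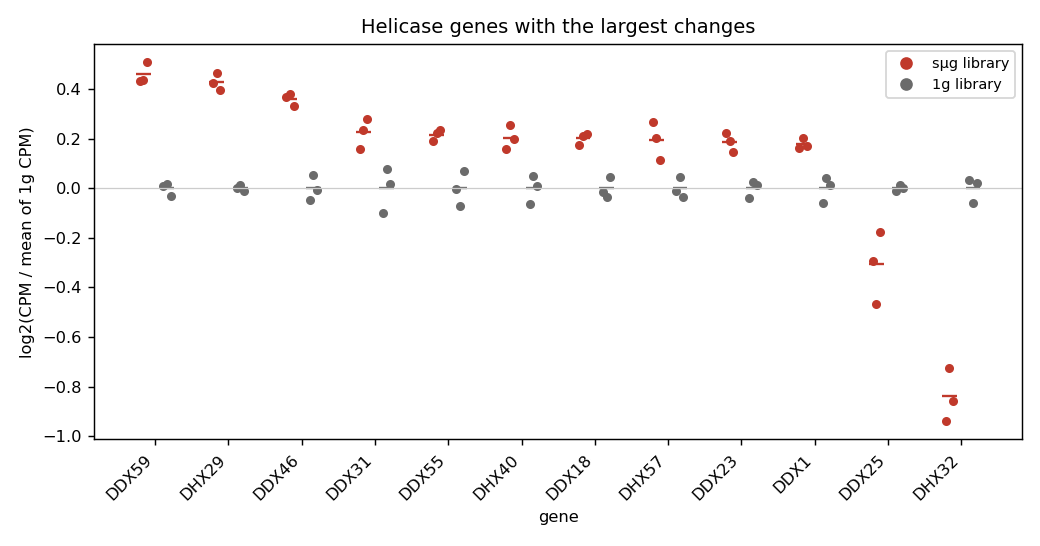
CPM of each library relative to the 1g mean of the same gene, on a log2 scale (vertical axis), for the 10 members with the largest rises and the 2 that fell; red points are the 3 sµg libraries, grey points the 3 1g libraries and short lines the condition means. The sµg and 1g points do not overlap for any of the 12 genes, and DHX32 stands apart at −0.84.

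DDX11, a helicase of sister chromatid cohesion, was higher at 0.15 (adjusted p = 0.0137 from edgeR), with 96.4, 98.7 and 106 CPM in the sµg libraries, against 88.4, 92.9 and 91.1 CPM in the 1g libraries. All sµg values were above all 1g values, but near-identical copies of DDX11 exist elsewhere in the genome and the division of reads between them is uncertain. It did not pass without 1g replicate 1 (0.13).

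The sensors of viral RNA were scarce. DDX60, an antiviral helicase, had 2.69, 2.48 and 2.09 CPM in the sµg libraries, against 2.91, 3.20 and 2.73 CPM in the 1g libraries. Its relative DDX60L had 1.10, 0.596 and 1.02 CPM in the sµg libraries, against 1.24, 0.921 and 1.06 CPM in the 1g libraries. The DDX60 values were all lower in sµg and those of DDX60L overlapped, and neither passed, at −0.28 (standard error 0.17) and −0.25 (standard error 0.29). DHX58, known as LGP2, stood at −0.11 (standard error 0.23). The direction turned for DDX60 by limma on TPM (0.01 and 0.03) and for DHX58 when a library was left out (0.10 without sµg replicate 1 and 0.11 without 1g replicate 1), none passing. These standard errors compare with a median of 0.043 over the 50 members, so that a change of the size seen in most of them was not detectable at this depth. RIGI, the sensor once named DDX58, was at 7.83 CPM in sµg and 8.19 CPM in 1g and did not pass.

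The 3 germ cell members were at the edge of detection and were not tested. DDX43 had 2, 0 and 3 expected counts in the sµg libraries, against 13, 9 and 14.4 in the 1g libraries. Its sums were 5 in sµg and 36.4 in 1g, and with no filter on low counts it passed as lower. CGAS, on the opposite strand, shares 6.61% of its exon bases and stood at −0.02. DDX4, the germ cell marker VASA, had 0, 0 and 1 expected counts in the sµg libraries and 4, 1 and 4 in the 1g libraries. DDX53 had 0 in all 6 libraries and was not detectable at this depth.

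Of 25 listed RNA helicases with other names 23 were tested, with 4 higher and 4 lower and a median of −0.04, beside 15.5% of all genes higher and 18.2% lower. YTHDC2, a reader of methylated RNA, was higher at 0.52 and DICER1, which cuts microRNA precursors, at 0.27. MOV10, which restrains retroelements, was lower at −0.24 and HELZ2 at −0.34. Of 33 cofactors of the DDX and DHX proteins 32 were tested, with 11 higher, 0 lower and a median of 0.06, among them GPATCH4 (0.29), a G-patch partner of DHX15.

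On the TPM scale, which allows genes to be ranked, DDX5 averaged 565 TPM over the 6 libraries and DDX39B 519.7 TPM, together 28.5% of the TPM of all 53 members. DDX5 had 579, 563 and 588 TPM in the sµg libraries, against 557, 553 and 549.6 TPM in the 1g libraries. DDX39B had 544, 542 and 567 TPM in the sµg libraries, against 494, 478 and 493 TPM in the 1g libraries. DDX17 had 199.8, 205 and 206 TPM in the sµg libraries, against 202, 210.4 and 206 TPM in the 1g libraries. The ranges of DDX5 and DDX39B overlapped over the 6 libraries, while DDX17, next at 205 TPM, was below both in every library. DHX15 (203.9 TPM), DDX3X (180.2), DHX9 (179.7), DDX39A (136), DDX1 (135), DDX21 (123) and DDX24 (102) followed, and the first 10 held 61.7%. In most of the order neighbours overlapped over the libraries. They were apart only between DDX39B and DDX17, DHX9 and DDX39A, DDX50 and DHX33, DDX59 and DHX58, DHX58 and DDX60, and DDX60L and DDX43.

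**Figure D3:**
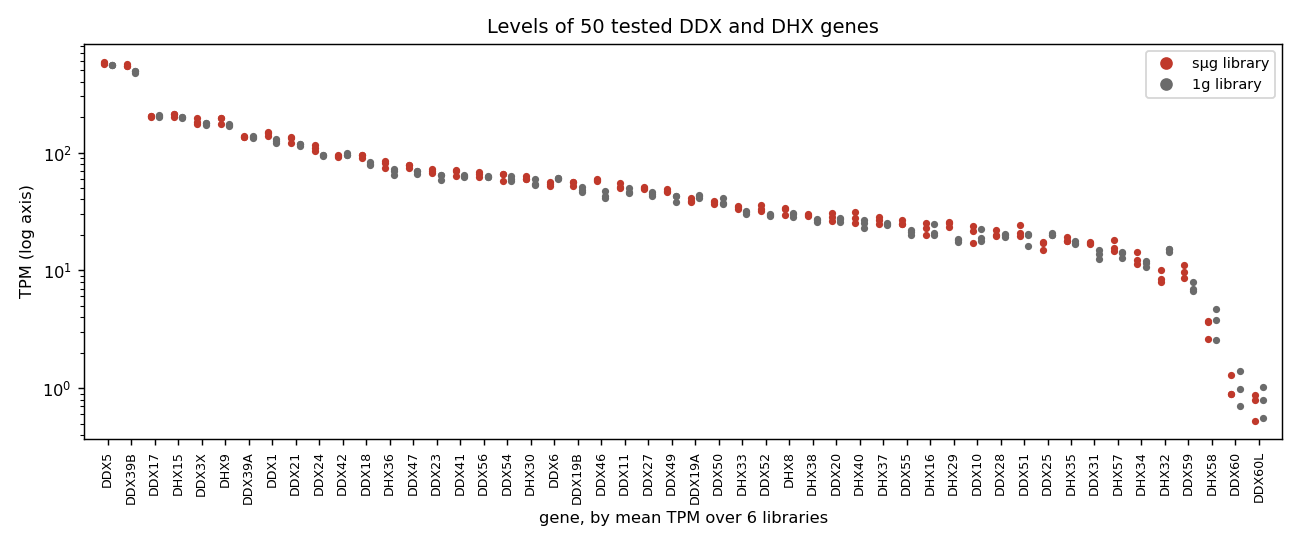
TPM on a log axis (vertical) of the 50 tested DDX and DHX genes in order of their mean over 6 libraries (horizontal); red points left are the 3 sµg libraries and grey points right the 3 1g libraries. DDX5 and DDX39B stand above the rest, the middle of the order falls smoothly, and DHX58, DDX60 and DDX60L drop away at the end.

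Few transcripts of the helicases passed, and few passed in the series as a whole. The rarity of calls therefore does not show that their transcripts seldom changed. Of 306 member transcripts tested with edgeR 3 were higher and 2 lower in sµg, or 1.63% called, against 1.76% of all transcripts, and of 302 tested for use, that is for a change unlike that of the gene, 0 passed, with 8 at an unadjusted p under 0.05 (0.27% of all transcripts passed). The transcripts that passed were DHX29-201 (0.41) and DDX46-201 (0.42), which carry most of their genes' RNA and rose with them, DHX32-201 (−0.88), which fell with its gene, and DDX5-215 and DDX6-202. None of the 5 passed with the replicate number as a block, nor without 1g replicate 1 or 3, and the number higher was 0 to 2 and the number lower 0 to 1 when 1 library was left out.

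DDX6-202, a protein-coding form of DDX6, held 31.0%, 34.6% and 31.2% of the gene's TPM in the sµg libraries, against 45.2%, 40.8% and 41.6% in the 1g libraries. The shares did not overlap, and the transcript was lower at −0.60 ± 0.072 (SE; edgeR adjusted p = 0.0222) while DDX6 as a whole stood at −0.0067 and did not pass. With the effective length offset the whole gene passed as lower at −0.19, and DDX6 had 54.5, 52.2 and 56.6 TPM in the sµg libraries, against 61.2, 61.0 and 59.5 TPM in the 1g libraries, every sµg library below every 1g library. DDX6-202 itself passed in none of the 6 fits that left out 1 library. The test of use did not pass (adjusted p = 0.788 from edgeR's diffSpliceDGE). DDX5-215, a transcript that keeps an intron, held 22.3%, 23.1% and 23.5% of DDX5 in the sµg libraries, against 17.8%, 18.3% and 18.7% in the 1g libraries. It was higher at 0.34 (adjusted p = 0.0315 from edgeR), without overlap, but its use did not pass.

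Retained-intron transcripts, which stay in the nucleus more often than other forms, were examined next. In the 53 members they held 15.7%, 15.8% and 16.5% of TPM in the sµg libraries, against 14.9%, 15.7% and 15.6% in the 1g libraries, with 7.05% to 7.26% over all protein-coding genes. The conditions overlapped for the members as a whole. In DDX5 the retained-intron share was 37.5%, 38.3% and 38.9% in sµg, against 32.5%, 33.3% and 33.6% in 1g, and the share of nonsense-mediated decay (NMD) transcripts was 28.2%, 25.1% and 27.1% in sµg, against 29.9%, 28.3% and 29.2% in 1g. Both DDX5 shares were apart, in opposite directions. Over 48 members the sµg retained-intron shares were all above those of 1g in 6 and all below in 5. Among protein-coding genes at 1 TPM or more in every library these cases made up 3.54% and 3.46%. Those all above were DDX5, DDX11, DDX17, DDX31, DDX47 and DDX49, and those all below were DDX1, DDX18, DDX39B, DDX41 and DDX46. NMD shares were all above in 1 member, DHX33 (2.5% of the same protein-coding genes), and all below in 3, DDX5, DDX41 and DDX49 (1.86%). The members hold larger retained-intron and NMD shares than protein-coding genes at large, so these percentages do not compare like with like. In DDX46 the retained-intron share was 5.62%, 6.70% and 6.41% in the sµg libraries, against 7.90%, 11.2% and 10.1% in the 1g libraries. These shares come from RSEM's division of reads among transcripts, whose error is not in the test.

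**Figure D4:**
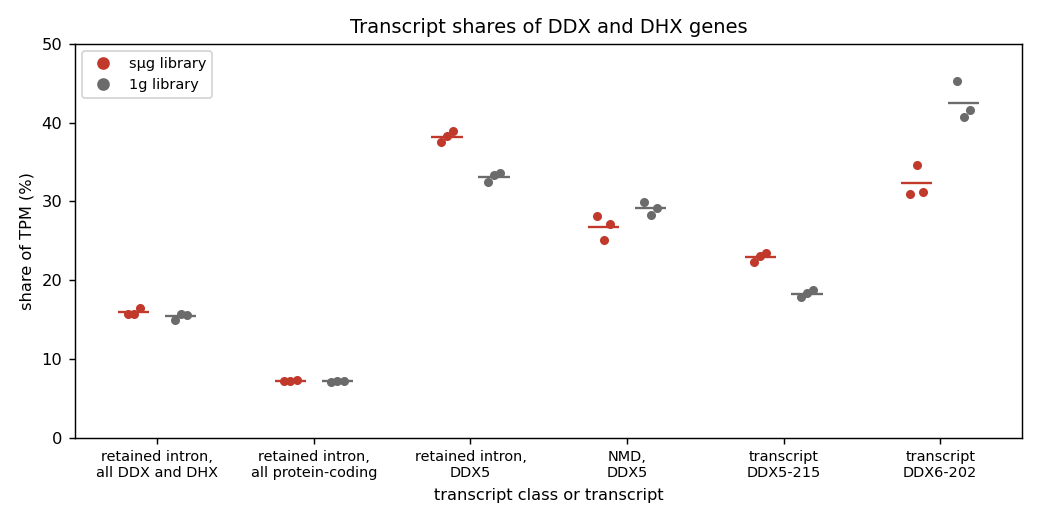
Share of TPM in percent (vertical axis) held by retained-intron transcripts of all 53 members and of all protein-coding genes, by retained-intron and NMD transcripts of DDX5, and by the single transcripts DDX5-215 and DDX6-202 within their genes; red points are the 3 sµg libraries, grey points the 3 1g libraries and lines the means. The DDX5 retained-intron share averaged 38.2% in sµg and 33.2% in 1g, and DDX6-202 averaged 32.3% in sµg and 42.5% in 1g.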

How the data were processed

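Poly(A) RNA was sequenced in 3 sµg and 3 1g libraries made with a stranded kit. Alignment with STAR 2.7.7a to GRCh38.p13 and quantification with RSEM 1.3.3 are named in the processing notes. For each library a gene table and a transcript table hold the expected counts the authors deposited, RSEM's estimate of reads per feature, which splits a read matching several features by probability and ignores strand by default. The TPM values that the authors deposited correct these counts for effective length and set every library to the same total. The effective lengths and the percent of a gene's TPM held by each transcript are also as deposited by the authors. The study made several versions of its counts, and no source used here says which of them these are.

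Gene identifiers were matched to GENCODE 44 (60419 of 60719), from which symbols, types and GRCh38 positions were taken, and promoter sequences came from RefSeq (GRCh38.p14). Protein sequences were not analysed here. Expected counts were rounded and filtered with filterByExpr (minimum count 10, minimum total 15), scaled by TMM and compared with edgeR 4.0.16 in R 4.3.3 (robust quasi-likelihood test, condition as the single factor, Benjamini-Hochberg over 16763 genes or 53807 transcripts, threshold 0.05). Transcript use was tested with diffSpliceDGE. The tests were tried on simulated data first. An exact permutation test of 3 against 3 libraries cannot go below p = 0.1. Tried as alternatives were the replicate number as a block, leaving out single libraries, an effective length offset, DESeq2 1.42.0, filters of none or 10 counts per library, RLE scaling, and limma 3.58.1 on TPM with 1 or 0.1 added before the log2.

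The helicase genes, their role groups and the gene lists were chosen with earlier results of these data known, and lists are described by counts and medians without a test. Per-library values are given for the 10 largest rises and falls among members that passed at 1 CPM or more, for 5 pairs of relatives and for the 3 members with the highest TPM. From each list up to 4 genes with the smallest adjusted p are named, and of transcripts up to 8 that hold at least 10% of their gene. Other genes with values were chosen after these were seen.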

Additional observations from a re-analysis of the deposited data

How the results depend on the processing

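With main counts of 17 members higher and 2 lower, DESeq2 gave 15 and 2, RLE scaling 17 and 2, no filter on low counts 16 and 3, and requiring 10 counts in each library 17 and 2. An effective length offset gave 8 and 3, with 1242 higher and 1864 lower over all genes, against 2591 and 3057 without it. Limma gave 11 and 2 with either pseudocount, with 1495 higher and 1459 lower over all genes on log2(TPM + 1) and 1480 and 1444 on log2(TPM + 0.1), and 50.6% of its calls over all genes were higher, against 45.9% by edgeR. The cause of these differences was not tested. When each library was left out in turn, 11 (without 1g replicate 1) to 23 (without sµg replicate 3) members were higher and 2 to 4 (without sµg replicate 3) lower, while 1879 to 2967 genes were higher and 2464 to 3224 lower. Member transcripts were higher in 0 to 2 cases and lower in 0 to 1, and 0 to 1 passed for transcript use, each time a different one. Among members with per-library values DDX19B turned to 0.126 with the effective length offset and to 0.16 and 0.163 by limma on log2(TPM + 1) and log2(TPM + 0.1). DDX39A turned to 0.00759 and 0.00764 and DDX60 to 0.00984 and 0.0295 in the same limma fits, and DDX39A lay between −0.0497 (without sµg replicate 3) and 0.000551 (without sµg replicate 1) when single libraries were left out, none of these passing. DHX16, DHX37, DHX58, DDX6, DDX28 and DDX51 also turned under some alternatives, none passing there. The cause of these turns was not tested. Depth limits DDX60, DDX60L, DHX58 and the 3 germ cell genes.

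With the replicate number as a block, 16 members were higher and 3 lower, DHX33 no longer passing and DDX19A passing as lower, and 0 member transcripts were higher and 0 lower. The paper calls the 1g samples matched controls, without saying how single libraries were matched. Deviations from the condition means correlated at 0.0041, 0.0414 and 0.0126 across genes for libraries of the same number. For different numbers they correlated at −0.0286 to 0.0172. Genes are not independent replicates, so these small values do not decide whether the numbers pair the samples. The main test left the numbers out.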
